A study of Mus musculus with 18 samples.

Results

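Duodenal crypts were compared before and after the first 24 h of enteroid culture in WT (Mtgr1+/+) mice. The comparison took 6 of the 18 libraries of the series: 3 labelled WT crypt, made from crypts at isolation (day 0), and 3 labelled WT D1 enteroid, made from crypts of the same mouse numbers after 24 h in culture. Enteroids are 3-dimensional epithelial cultures that grow from plated crypts. The mice were 8 to 12 weeks old and of both sexes. Crypts were plated in growth factor reduced Matrigel under ENR medium. This medium supplies EGF, noggin (an inhibitor of BMP ligands) and R-spondin (an enhancer of Wnt signalling). It also holds the supplements N2 and B27, and its noggin and R-spondin came as conditioned media. The other libraries came from WT enteroids at day 3, and from crypts and day 1 and day 3 enteroids of Mtgr1 null mice, which lack the transcriptional co-repressor MTGR1. The 3 mice of a group are separate animals, and each enteroid library is 1 culture of an animal, so crypt isolates are compared with young cultures and not with another tissue. The question is which transcripts differ between a crypt and the enteroid it has become by the next day.

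The crypt base holds Lgr5+ stem cells that divide under Wnt signals from Paneth cells and the stroma, while their daughters move up, leave the cell cycle and become absorptive enterocytes or secretory cells. BMP signals, which rise towards the villus, oppose stem cell identity and promote late enterocyte maturation. In the animal the crypt also lies next to lymphocytes, stroma, microbial products, bile and dietary lipid, none of which is named as a part of the culture. After injury, intestinal epithelium is known to switch on a programme of genes also found in the fetal gut, marked by Clu, Anxa1 and Ly6a and linked to YAP and EGF receptor signalling.

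The 6 libraries held 22035316 to 28207843 recovered reads. A recovered read is a deposited normalized value divided by the smallest value above 0 in its column. All values became whole in this way (tolerance 0.0001). The day 0 and day 1 tables had been normalized apart, so the reads were joined on the 16414 gene identifiers in all 3 deposited tables and scaled together by TMM. A level below is a normalized count on that joint scale, always given for mice 1, 2 and 3 in this order, and it compares libraries for 1 gene, not genes with each other. Xist, which is expressed in females, stood at 3.09, 7.45 and 10863 in the crypts and 2.72, 8.24 and 10144 at day 1, so the mouse with a high value had the same number in both groups and was mouse 3.

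The crypt library of mouse 3 stood apart from those of mice 1 and 2. Mitochondrially encoded genes took 13.4% of its reads against 6.24% and 6.84% in the other crypts and 5.67% to 6.29% at day 1. Its leukocyte transcripts were far higher, with Ptprc (CD45) at 439, 405 and 4051 in the crypts and 36.2, 35.0 and 147 at day 1, and Cd8a at 264, 222 and 3202 and 12.7, 15.5 and 67.4. Summed over the 19 listed of 23 markers of T cells and intraepithelial lymphocytes, the level was 4825 and 4227 in crypts 1 and 2, 41626 in crypt 3, and 285 to 931 at day 1. The 16 listed of 17 myeloid markers summed to 1009 to 7008 in the crypts and 325 to 361 at day 1, and Csf1r, a defining gene of macrophages, was at 0.906, 0 and 1.66 at day 1. Fibroblast markers (9 of 20 listed) summed to 214 to 945 and 178 to 278, and endothelial markers (10 of 14 listed) to 246 to 424 and 246 to 270. Of the 12 acinar pancreas markers 2 were listed, and of the 9 blood markers 1. The villus tip genes, which mark enterocytes that a crypt isolate may carry along, also summed higher in the crypts (138117 to 205271, against 37072 to 42570 at day 1, 15 of 15 listed). Results that rest on mouse 3 are therefore also given without it, and what set this crypt apart cannot be told from the sex of the mouse.

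**Figure D1:**
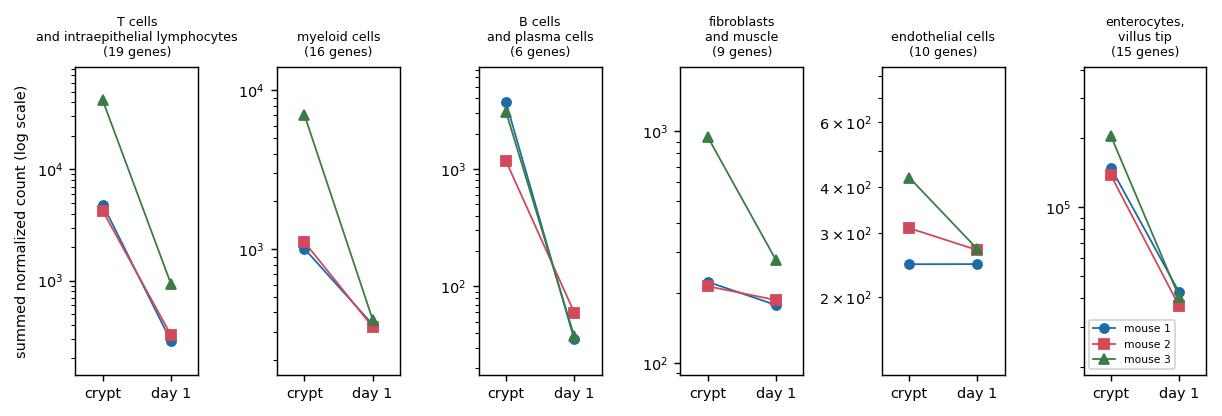
Summed normalized count (y axis, log scale) of the listed markers of 5 non-epithelial cell classes and of villus tip enterocytes in each WT library, with crypt and day 1 on the x axis and a line for each mouse number. The crypt of mouse 3 lies above the other crypts for T cell, myeloid, fibroblast and endothelial markers, and all 3 day 1 libraries lie below all 3 crypts for T cells, myeloid cells, B cells and the villus tip.

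Leukocyte transcripts were among the largest falls. In bulk RNA, fewer cells of a type and less RNA per cell cannot be told apart, here and in every result that follows. Gzma, a granule protease of cytotoxic lymphocytes, was at 1166, 929 and 8221 in the crypts and 12.7, 12.4 and 54.1 at day 1, a mean 130.4-fold lower (log2 change -6.59 ± 0.23 (SE), adjusted p = 9.32e-05) and 83.7-fold lower without mouse 3, whose crypt was the highest. Jchain, the joining chain of secreted IgA, went from 3592, 1075 and 2503 to 4.53, 18.5 and 4.99 (log2 change -7.94 ± 0.65 (SE), adjusted p = 0.000478), with a log2 change of -7.25 without mouse 1 and -9.03 without mouse 2. The crypt and day 1 values did not overlap for either gene, which was a condition for the 15 largest falls, to which both belong. Of 19 lymphocyte markers tested, 18 fell at least 2-fold, and of 15 myeloid markers 11 did, against 11.5% of all genes. Without mouse 3 these were 17 of 18 and 7 of 9.

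About as many genes rose as fell by day 1. Of 13038 genes with a mean of at least 10, 3312 (25.4%) rose and 3287 (25.2%) fell in limma with the mouse as a block (adjusted p below 0.05, 50.6% in either direction). Without mouse 1, 1751 rose and 2022 fell. At least 2-fold changes were fewer and leaned downwards, with 846 genes (6.49%) higher and 1493 (11.5%) lower. The values of the groups did not overlap for 4180 genes (32.1%) that were higher and 3940 (30.2%) that were lower at day 1. These shares are the background for every list, in which "rose" and "fell" mean an adjusted p below 0.05 over all genes tested. Scaling by total reads alone, which moved the median of all genes by 0.21 on the log2 scale, gave 4801 higher and 2314 lower genes, so small changes of either sign depend on the scaling, and sizes are stated relative to the median gene. The median log2 change over all genes tested was -0.0015 on the TMM scale.

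**Figure D2:**
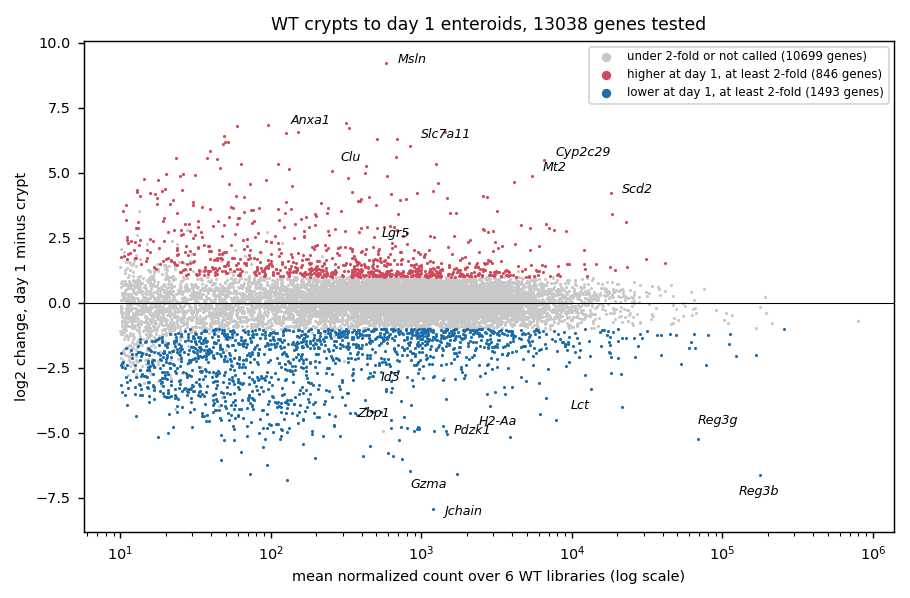
Log2 change from crypt to day 1 (y axis) against the mean normalized count over the 6 WT libraries (x axis, log scale) for the 13038 genes tested, with 846 genes at least 2-fold higher in red and 1493 at least 2-fold lower in blue. Msln, Anxa1 and Slc7a11 stand at the upper edge and Jchain, Gzma, Reg3b and Reg3g at the lower edge, and Reg3b and Reg3g are among the most abundant genes.

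Regenerative and fetal genes rose from low crypt levels. Msln (mesothelin, a cell surface glycoprotein; chr17:25748613-25754378, GRCm38, minus strand) was nearly absent from crypts, with 1.03, 0 and 2.46, and reached 1555, 921 and 1034 at day 1. The crypts held 3 Msln reads in all against 3853, a ratio of 1068 with a 95% counting interval of 365 to 5181. Anxa1 (annexin A1, a phospholipid-binding protein of epithelial repair; chr19:20373428-20390944, minus strand) went from 4.12, 1.06 and 18.4 to 797, 406 and 748 (log2 change 6.73 ± 0.48 (SE), adjusted p = 0.000322). Clu (clusterin, a secreted chaperone that marks revival stem cells; chr14:65968483-65981547, plus strand) rose from 22.7, 2.13 and 25.8 to 1240.1, 790.4 and 962 (log2 change 6.29 ± 0.52 (SE), adjusted p = 0.000491). Every day 1 library lay above every crypt for all 3 genes. Without mouse 3 the log2 change of Anxa1 was 7.46, and without mouse 2 that of Clu was 5.44, both in the same direction.

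Of the 33 revival, fetal and YAP target genes tested (40 in the list, 35 in all 3 tables), 26 rose, 25 of them at least 2-fold, against 6.49% of all genes. The median log2 change was 3.47, against -0.0015 over all genes, and 3.59 without mouse 3. Anxa10 stood at 57.7, 25.5 and 16.0 and then 3421, 2141 and 2959 (log2 change 6.55 ± 0.29), and Sprr1a, a cornified envelope protein of stressed epithelia, at 11.3, 21.3 and 16.0 and 1636, 979 and 1439 (log2 change 6.31 ± 0.31). Ly6a (Sca-1), a marker of fetal-like epithelium, was already present in crypts at 108, 125 and 168 and rose to 633, 459 and 568 (log2 change 2.05 ± 0.19 (SE), adjusted p = 0.000641). The mean rose 4.14-fold for Ly6a and 85.9-fold for Anxa10, with no overlap between groups for any of these genes. S100a6, a calcium-binding protein that was already well expressed in crypts, went from 328, 317 and 280.1 to 9144, 5262 and 9336. Ly6e (-0.56) and Cldn7 (-0.41) fell, and 5 members did not pass the test, Basp1 (-1.39), Tinagl1 (0.35), Krt19 (0.45), Anxa2 (0.47) and Amotl2 (0.72). Ccn2, a YAP target, was listed at 116, 53 and 129 reads in the day 1 table but not listed in the crypt table, and was not tested.

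**Figure D3:**
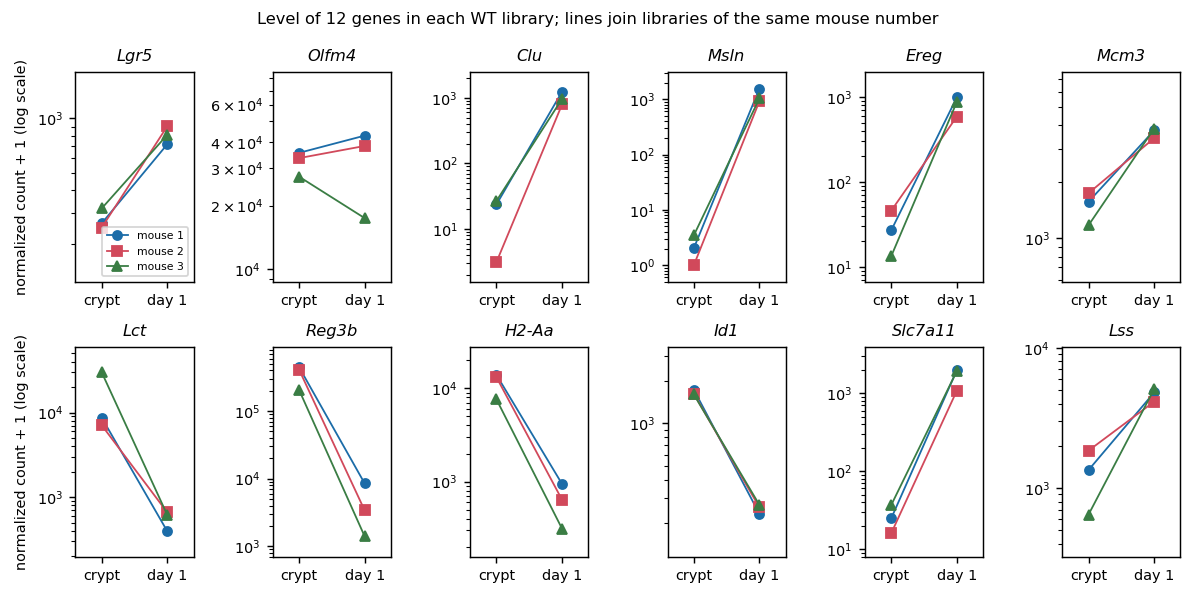
Normalized count + 1 (y axis, log scale) of 12 genes in the 3 WT crypt and 3 WT day 1 libraries, with lines that join libraries of the same mouse number. Lgr5, Clu, Msln, Ereg, Mcm3, Slc7a11 and Lss rise and Lct, Reg3b, H2-Aa and Id1 fall in all 3 mice, whereas Olfm4 rises in mice 1 and 2 and falls in mouse 3.

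Most stem cell genes rose. Lgr5, the R-spondin receptor that marks cycling stem cells (chr10:115450311-115587780, minus strand), was at 261, 247 and 316 in crypts and 718, 905 and 811 at day 1, a 2.96-fold rise of the mean (log2 change 1.56 ± 0.14 (SE), adjusted p = 0.000598). Olfm4, an abundant secreted stem cell marker, was at 35514, 33541 and 27403 and 42842, 38286 and 17453, so the groups overlapped (log2 change -0.06 ± 0.21 (SE), adjusted p = 0.82), and its log2 change was 0.24 without mouse 3. Ascl2, a transcription factor of stem cells, moved from 168, 132 and 166 to 240.0, 295 and 215 (log2 change 0.68 ± 0.20 (SE), adjusted p = 0.0305), a call that was lost without mouse 1 (adjusted p = 0.0934) or mouse 2 (adjusted p = 0.132). Of 26 stem cell genes 19 rose, 12 at least 2-fold, none fell, and the median log2 change was 0.82. The largest rises were in Phlda1 (2.56 ± 0.26), the Eph receptor Ephb3 (1.75 ± 0.13), the hyaluronan receptor Cd44 (1.74 ± 0.12) and the RNA-binding protein Msi1 (1.60 ± 0.15). The 7 members that did not pass were Prom1, Olfm4, Clca3b, Nrn1, Tnfrsf19, Aqp4 and Gkn3, at log2 changes from -0.16 to 0.55.

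Wnt target genes moved with the stem cell list, with which they share members such as Lgr5, Axin2 and Cd44. Of 23 tested, 15 rose and 1 (Mmp7, also a Paneth cell protease, -0.65) fell, against 25.4% and 25.2% of all genes. Axin2, a feedback inhibitor and direct Wnt target, went from 1889, 1701 and 1242 to 2833, 2667 and 1938 (log2 change 0.63 ± 0.08 (SE), adjusted p = 0.00184). Myc went from 1532, 1043 and 724 to 2446, 2491 and 2557 (log2 change 1.25 ± 0.21 (SE), adjusted p = 0.00401), and its 3 day 1 values lay close together above a wider spread in crypts. Sox4 (1.56 ± 0.12) and the progenitor factor Sox9 (1.22 ± 0.15) rose as well. Ccnd1 did not pass (log2 change 0.26 ± 0.16 (SE), adjusted p = 0.208), and the call of Ccnd2 (log2 change 0.47 ± 0.15 (SE), adjusted p = 0.0387) was lost without mouse 1 (adjusted p = 0.317) or mouse 2 (adjusted p = 0.066).

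Ligands of the EGF receptor rose in cultures whose medium held EGF. Ereg (epiregulin) was at 25.8, 44.7 and 12.3 in crypts and 987, 586 and 871 at day 1, a mean 29.5-fold higher (log2 change 4.98 ± 0.42 (SE), adjusted p = 0.000533) and 48.9-fold without mouse 2, where the log2 change was 5.62. Areg (amphiregulin) went from 405, 504 and 71.3 to 3169, 1821 and 3354 (log2 change 3.45 ± 0.63 (SE), adjusted p = 0.00582), and its log2 change was 2.42 without mouse 3, whose crypt was the lowest, and 4.25 without mouse 2. Btc (betacellulin) went from 129, 142 and 112 to 991, 712 and 1278 (log2 change 2.92 ± 0.23 (SE), adjusted p = 0.000423). No day 1 library overlapped a crypt for any of these ligands. The ETS factors Etv4 (2.88 ± 0.22) and Etv5 (1.70 ± 0.14), transcriptional outputs of the same receptor's ERK pathway, rose too, as did the receptor inhibitor Lrig1 (1.17 ± 0.11). Over the family 14 of 21 genes rose, 10 at least 2-fold, against 25.4% and 6.49% of all genes. The receptors Erbb2 (-0.62) and Erbb3 (-0.77) fell, and Dusp6, Egf, Spry2, Tgfa and Nrg4 did not pass.

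Several laminin, collagen IV and keratin genes rose, in part members of the revival list too. Lamc1, a gamma chain of laminin, was at 148, 139 and 233 in crypts and 1222, 953 and 1416 at day 1 (log2 change 2.80 ± 0.13 (SE), adjusted p = 0.000114). Plaur, the urokinase receptor, went from 27.8, 40.4 and 45.5 to 1380.5, 863 and 1181 (log2 change 4.88 ± 0.25 (SE), adjusted p = 0.000119), and the matricellular gene Thbs1 from 33.0, 36.2 and 67.6 to 754, 328 and 532. Day 1 lay above the crypts in all 3 mice for these 3 genes. Of 31 matrix and integrin genes 15 rose and 4 fell, against 25.4% and 25.2% of all genes. The falls were Itga3, Itgb5, Mmp7 and Col18a1. Among keratins and junction proteins Krt23 (4.21 ± 0.19), Krt7 (2.87 ± 0.13), Krt18 (2.04 ± 0.15) and Cldn4 (4.10 ± 0.20) rose, and Krt20, a keratin of mature villus cells, fell from 29012, 30898 and 25318 to 7712, 5251 and 9872 (log2 change -1.94 ± 0.22 (SE), adjusted p = 0.0012). Cldn18, a claudin known from stomach and lung, was at 1.03, 1.06 and 2.46 in crypts and 118, 90.7 and 61.6 at day 1. Adhesion genes that mark epithelium at large moved little. Cdh1 (E-cadherin) did not pass (log2 change 0.18 ± 0.11 (SE), adjusted p = 0.233), and Epcam was at 32156, 31674 and 30004 and 24059, 22289 and 22326 (log2 change -0.45 ± 0.11 (SE), adjusted p = 0.0193), a call that was lost without mouse 1 (adjusted p = 0.163).

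Genes of DNA replication, mitosis and ribosome production rose almost without exception, 2-fold or more in a part of each list (background 6.49%). A separate list of G1 cyclins and inhibitors of cyclin-dependent kinases moved both ways. Of its 14 genes tested 3 rose and 5 fell (median log2 change 0.03), against 25.4% and 25.2% of all genes. Of 41 DNA replication genes 40 rose, 16 at least 2-fold (median log2 change 0.84), and the other, E2f2, did not pass. Mcm3, a subunit of the replicative helicase, was at 1565, 1737 and 1173 and 3746, 3411 and 3835 (log2 change 1.31 ± 0.15 (SE), adjusted p = 0.00113). Of 36 mitotic genes 35 rose, 5 at least 2-fold (median 0.80), among them Plk1 (1.12 ± 0.13) and Ect2 (1.14 ± 0.09), and the other, Spc24, did not pass. Mki67, the proliferation antigen Ki67, went from 10032, 9782 and 8705 to 14944, 14290.4 and 14200.0 (log2 change 0.61 ± 0.10 (SE), adjusted p = 0.00354). All 40 ribosome biogenesis genes rose, 22 at least 2-fold (median 1.02), led by Utp4 (1.38 ± 0.14) and the nucleolar proteins Npm1 (1.37 ± 0.12) and Ncl (1.36 ± 0.15).

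How many genes of the replication, mitosis and ribosome biogenesis lists rose at least 2-fold depended on mouse 3. At least 2-fold rises numbered 16 in DNA replication, 5 in mitosis and 22 in ribosome biogenesis, and 6, 2 and 10 without it, while the medians were 0.73, 0.74 and 0.90. The mitotic count was 12 without mouse 1 and 9 without mouse 2. Under total read scaling the 3 counts were 24, 20 and 34. Nuclear genes of oxidative phosphorylation moved the other way, with 35 of 36 falling (median -0.54) and none at least 2-fold. Under total read scaling 21 of them fell.

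**Figure D4:**
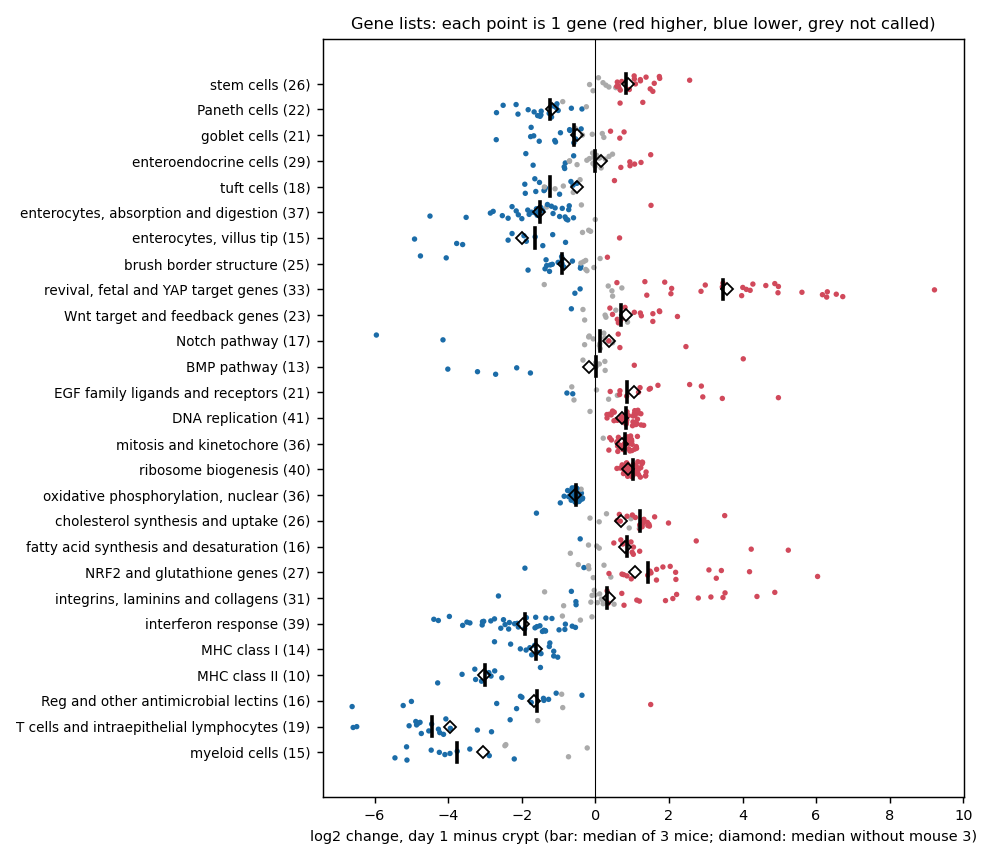
Log2 change from crypt to day 1 (x axis) of every tested member of 27 gene lists (rows, number tested in brackets). Points are genes, red where higher, blue where lower and grey where not called, bars are list medians and open diamonds are medians without mouse 3. The revival, fetal and YAP list has the highest median (3.47) and the lymphocyte list the lowest (-4.45), and the tuft cell and myeloid medians move most without mouse 3.

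Targets of BMP signalling fell together while its receptors did not pass the test. Id1, an inhibitor of differentiation factors and direct BMP target, was at 1725, 1615 and 1597 in crypts and 230.1, 256 and 266 at day 1, a mean 6.57-fold lower (log2 change -2.71 ± 0.11 (SE), adjusted p = 9.32e-05). Id3 was at 1605, 1610.3 and 1519.9 and 147, 165 and 204 (log2 change -3.20 ± 0.14 (SE), adjusted p = 0.000101), and the inhibitory SMADs Smad6 (178, 209 and 235 and 9.96, 6.18 and 25.8) and Smad7 (656, 625 and 840.4 and 189, 119.5 and 176) fell as well. Crypts and day 1 did not overlap in any of these 4 genes. With Id2 (-1.77 ± 0.24), 5 of 13 BMP genes tested fell, all at least 2-fold, and 2 rose, Bmp7 (1.06 ± 0.15) and the antagonist Fst (0, 0 and 6.14 in crypts and 20.6 to 53.4 at day 1). The call of Fst was lost without mouse 1 (adjusted p = 0.0824). The receptors Bmpr1a (0.11) and Bmpr2 (0.01) and the ligand Bmp2 (0.02) did not pass. Of 17 Notch genes 4 rose (Notch2, Notch3, Hes6 and Dtx4) and 2 fell (Dtx1 and Heyl), against 25.4% and 25.2% of all genes. Hes1, the main effector (log2 change 0.33 ± 0.15 (SE), adjusted p = 0.116), and Atoh1, the factor of secretory commitment that Hes1 represses (log2 change 0.23 ± 0.15 (SE), adjusted p = 0.235), did not pass. Dtx1 fell from 116, 129.8 and 915 to 0, 2.06 and 18.3, with its highest value in the crypt that was richest in lymphocyte markers. Its log2 change was -6.13 without mouse 3 and -5.50 without mouse 1, and the part of lymphocytes in this fall was not tested.

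Absorptive genes fell in breadth. Lct (lactase, chr1:128284756-128328318, minus strand) was at 8691, 7083 and 29890.2 in crypts and 394, 659 and 613 at day 1 (log2 change -4.50 ± 0.37 (SE), adjusted p = 0.000485), and its log2 change was -3.93 without mouse 3. Apoc3, an apolipoprotein, went from 3937, 3458 and 7731 to 464, 439 and 345 (log2 change -3.51 ± 0.29 (SE), adjusted p = 0.000491), and Slc2a5, the fructose transporter, from 23373, 26308 and 14352 to 3987, 3290.5 and 2081 (log2 change -2.78 ± 0.11 (SE), adjusted p = 9.32e-05). All 3 mice fell for each, as the choice of these genes required. The crypt of mouse 3 was the highest for Lct and Apoc3 but the lowest for Slc2a5. Of 37 genes of absorption and digestion 33 fell, 25 at least 2-fold (background 11.5%), with a median log2 change of -1.50 (-1.53 without mouse 3). Fabp1, a fatty acid binding protein (48089, 52904 and 62814 and 69970.2, 49779.9 and 45596), overlapped between groups, and Gsta1, a glutathione transferase, rose (1.51 ± 0.20). Alpi, the brush border phosphatase, fell less than 2-fold, from 34302, 35733 and 36121 to 24146, 17236 and 22344 (log2 change -0.75 ± 0.15 (SE), adjusted p = 0.00746), and the call of the sucrase Sis (log2 change -0.97 ± 0.25 (SE), adjusted p = 0.0196) was lost without mouse 1 or mouse 3 (adjusted p = 0.0785 and 0.0558).

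Villus tip and brush border genes fell too. Enpp3, an ectonucleotidase, was at 3885, 3209 and 1342 and 103, 71.1 and 79.9 (log2 change -4.92 ± 0.27 (SE), adjusted p = 0.000151), and the nucleoside transporter Slc28a2 at 1091, 1110.1 and 1913 and 94.2, 85.5 and 109.9 (log2 change -3.77 ± 0.15 (SE), adjusted p = 9.32e-05). Apoa4, an apolipoprotein induced by fat at the villus tip, went from 71254, 59721 and 138308 to 18377, 14619 and 15769.5 (log2 change -2.37 ± 0.25 (SE), adjusted p = 0.000981). Of 15 villus tip genes 11 fell (median -1.64), and of 25 brush border genes 17 did (median -0.90). The scaffold Pdzk1 changed most among the latter, from 2726, 2548 and 2803 to 120.5, 116 and 68.2 (log2 change -4.76 ± 0.20 (SE), adjusted p = 9.32e-05), while Vil1 (villin) stood at 52093, 57134 and 46425 and 21272, 19515 and 24869.7 (log2 change -1.25 ± 0.16 (SE), adjusted p = 0.00189). Tmigd1, at 196, 191 and 14.7 and 2.72, 3.09 and 7.49, fell (-4.06 ± 0.97), with mouse 3 low already in the crypt and a call that was lost without mouse 1 (adjusted p = 0.0585) or mouse 2 (adjusted p = 0.058). Its log2 change was -3.22 without mouse 1, -3.31 without mouse 2 and -5.63 without mouse 3. The summed villus tip markers of the crypts were highest in mouse 3, and the part of villus cells carried over at isolation in these falls was not tested.

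Among secretory cells, Paneth, goblet and tuft genes fell, and enteroendocrine genes moved both ways, near the shares over all genes. Lyz1 (lysozyme), the Paneth cell enzyme, was at 60717, 64286 and 62195 in crypts and 32131, 26837 and 23617 at day 1 (log2 change -1.19 ± 0.15 (SE), adjusted p = 0.00184), and the defensin Defa24 at 45587, 50414 and 70315 and 21406, 18387 and 30118 (log2 change -1.26 ± 0.14 (SE), adjusted p = 0.00112). Of 22 Paneth cell genes 18 fell, 16 at least 2-fold. Defensin genes are near-identical copies, so reads may be split among them, and the 10 defensins that fell are not independent. Wnt3, the Wnt ligand made by Paneth cells, rose instead, from 59.8, 73.4 and 99.5 to 198, 196 and 168 (log2 change 1.29 ± 0.24 (SE), adjusted p = 0.00593). Pla2g2a, a Paneth cell phospholipase, differed more between mice than between groups, at 328, 281 and 12178 and 450.2, 418 and 3581.

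Zg16, a mucus lectin, led the goblet cell list, from 32944, 29706 and 31564 to 5641, 4265 and 4724 (log2 change -2.70 ± 0.10 (SE), adjusted p = 9.32e-05), and 13 of 21 goblet genes fell. The 3 members that rose were Spdef (0.66; a goblet and Paneth maturation factor), Creb3l1 (0.41) and Guca2a (0.78). Of 29 enteroendocrine genes 6 rose and 6 fell, against 25.4% and 25.2% of all genes. Without mouse 3 these were 8 and 5, with a median of 0.15. Neurog3, the factor of endocrine progenitors, went from 95.8, 109.6 and 123 to 243, 310.2 and 229.7 (log2 change 1.24 ± 0.18 (SE), adjusted p = 0.00274) and Tac1 rose (1.07 ± 0.15), whereas the hormones Nts (-1.89 ± 0.34) and Sct (-1.69 ± 0.16) and the granule protein Chga (1026, 1045 and 2189.5 and 670.3, 699 and 883, log2 change -0.83 ± 0.16 (SE), adjusted p = 0.0072) fell. Of 18 tuft cell genes 12 fell, among them the taste channel Trpm5 (718, 717 and 375 and 184, 158 and 125) and the kinase Dclk1 (349, 318 and 424 and 235, 199.9 and 131). At least 2-fold falls numbered 8, and 3 without mouse 3, where the list's median was -0.51 in place of -1.23. Siglecf, Plcb2 and Spib, which leukocytes also express, were highest in the crypt of mouse 3, and without mouse 3 the log2 changes of Plcb2 and Siglecf were -1.14 and -0.93 in place of -1.92 and -1.65 (Plcb2 -2.54 without mouse 2). Summed over the 21 of 23 tuft cell genes listed, crypts (8399 to 10846) and day 1 (7973 to 10101) overlapped.

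Antimicrobial lectins fell steeply. Reg3b, a secreted bactericidal lectin (chr6:78370657-78373466, plus strand), was at 445737, 409498 and 205261 in crypts and 8476, 3377 and 1394 at day 1, a mean 80.1-fold lower (log2 change -6.61 ± 0.29 (SE), adjusted p = 0.000101) and 129-fold lower without mouse 1. Reg3g, a lectin of the same family, was at 173276, 172004 and 56328 and 7192, 3439 and 1297 (log2 change -5.22 ± 0.21 (SE), adjusted p = 9.32e-05). Mouse 3 had the lowest value of each group in both genes, and every day 1 library lay below every crypt. Pigr, the receptor that carries IgA into the lumen, fell from 214724, 210026 and 162272 to 59311, 54655 and 32633 (log2 change -2.04 ± 0.20 (SE), adjusted p = 0.000744), and Dmbt1, a scavenger protein, from 339810.0, 257506 and 202788 to 70381, 85165 and 46509, a mean 3.96-fold lower (adjusted p = 0.00137). Together Reg3b, Reg3g, Dmbt1 and Pigr took 2.28% to 4.36% of the reads of a crypt and 0.349% to 0.646% at day 1. Of 16 genes of the list 13 fell, and Reg4, which endocrine and secretory cells express, rose (1000.4, 982 and 2412 and 4565, 3309 and 3586).

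Interferon response genes fell as a group. Such genes are switched on by interferons through STAT and IRF factors, which bind an element of GAAA, any 2 bases and GAAA. Stretches upstream of 4 genes that hold the element are shown because the list's change was broad. Matches to that element on either strand are in capitals. Each stretch runs 5′ to 3′ on the gene's own strand and ends at the base before the start, as RefSeq gives it.
Isg15 (GRCm38.p6 chr4:156200819-156201018, minus strand): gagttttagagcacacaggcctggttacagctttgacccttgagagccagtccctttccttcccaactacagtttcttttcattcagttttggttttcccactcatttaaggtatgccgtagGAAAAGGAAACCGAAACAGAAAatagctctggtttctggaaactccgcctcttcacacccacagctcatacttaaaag
Ifit1 (GRCm38.p6 chr19:34640689-34640888, plus strand): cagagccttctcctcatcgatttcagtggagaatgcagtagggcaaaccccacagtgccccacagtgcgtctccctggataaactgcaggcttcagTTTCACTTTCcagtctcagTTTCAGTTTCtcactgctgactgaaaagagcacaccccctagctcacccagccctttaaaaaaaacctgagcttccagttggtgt
Gbp2 (GRCm38.p6 chr3:142620463-142620662, plus strand): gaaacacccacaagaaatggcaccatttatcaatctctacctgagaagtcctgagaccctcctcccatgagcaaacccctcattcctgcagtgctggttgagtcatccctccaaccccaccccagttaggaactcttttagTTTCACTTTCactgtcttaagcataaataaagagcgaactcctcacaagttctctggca
B2m (GRCm38.p6 chr2:122147507-122147686, plus strand): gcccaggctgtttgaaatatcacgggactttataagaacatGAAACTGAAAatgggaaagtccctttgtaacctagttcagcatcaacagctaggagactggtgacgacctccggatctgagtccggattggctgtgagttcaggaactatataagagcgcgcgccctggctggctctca
Matches in Isg15 overlap each other (3 in all), Ifit1 holds 2, and Gbp2 and B2m hold 1 each. Over windows from 250 bases before to 50 after the start, 17 of 32 windows of the 27 of 39 interferon genes that were matched by symbol held the element (53.1%), as did 1131 of all 32851 windows (3.44%). B2m was named from the class I list, in which 2 of 12 windows held the element (16.7%). The element was chosen with the results known, and a match describes letters, not binding.

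Isg15, a ubiquitin-like protein, was at 537, 801 and 328 in crypts and 162, 258 and 109.9 at day 1 (log2 change -1.64 ± 0.13 (SE), adjusted p = 0.000416), and Ifit1, an RNA sensor, at 1049, 1093 and 722 and 200.2, 303 and 99.9 (log2 change -2.36 ± 0.20 (SE), adjusted p = 0.000498). Gbp2, a guanylate-binding protein, went from 114, 118 and 183 to 9.06, 10.3 and 17.5 (log2 change -3.41 ± 0.27 (SE), adjusted p = 0.000437). Zbp1, a sensor of nucleic acids, fell most, from 1836, 1605 and 967 to 68.8, 96.9 and 44.1 (log2 change -4.39 ± 0.17 (SE), adjusted p = 9.32e-05). No group overlapped in these 4 genes. Of 39 genes 36 fell, 31 at least 2-fold against 11.5% of all genes, none rose, and the median was -1.92 (-1.98 without mouse 3). Cxcl10 (-0.90), Irgm1 (-0.41) and Bst2 (-0.09) did not pass. Some of these genes are also expressed by leukocytes, and Mx1 and Gbp4 were highest in the crypt of mouse 3, with log2 changes of -2.86 and -2.80 without it in place of -3.61 and -3.49; the part of leukocytes in the list's change was not tested.

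Antigen presentation genes fell with them. The promoters of MHC class II genes carry a Y box, an inverted CCAAT motif (ATTGG), which is in capitals on either strand in the upstream stretches of 2 class II chains, written as above.
H2-Aa (GRCm38.p6 chr17:34287824-34287973, minus strand): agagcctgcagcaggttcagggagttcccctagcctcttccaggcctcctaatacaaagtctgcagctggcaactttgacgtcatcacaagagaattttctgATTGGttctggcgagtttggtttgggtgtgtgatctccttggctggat
H2-Eb1 (GRCm38.p6 chr17:34305717-34305866, plus strand): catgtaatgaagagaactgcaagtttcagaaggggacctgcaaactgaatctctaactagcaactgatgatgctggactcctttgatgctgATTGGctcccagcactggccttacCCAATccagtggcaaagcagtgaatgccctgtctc
Of 8 windows of the 7 of 10 class II genes matched, 6 (75.0%) held ATTGG, against 37.4% of all windows. H2-Aa, the class II alpha chain, was at 13940.3, 13169.6 and 7619 in crypts and 942, 637 and 311 at day 1, a mean 18.4-fold lower (log2 change -4.29 ± 0.14 (SE), adjusted p = 9.32e-05), and H2-Eb1 at 6938, 7184 and 5081 and 868, 589 and 565 (log2 change -3.26 ± 0.13 (SE), adjusted p = 9.32e-05). Ciita, the class II transactivator, went from 1278, 1216 and 958 to 119, 90.7 and 148 (log2 change -3.28 ± 0.21 (SE), adjusted p = 0.000251) and the invariant chain Cd74 from 40455, 40032 and 30058 to 7199, 5310.3 and 4294. The crypt of mouse 3, with the most leukocyte transcripts, had the lowest crypt value of all 4 genes. What part leukocytes had in these falls was not tested. All 10 class II genes tested fell at least 2-fold, by log2 changes from -4.29 to -1.49, and so did all 14 class I genes (median -1.61), with Nlrc5, the class I transactivator, at 406, 441 and 472 and 55.3, 94.8 and 51.6 (log2 change -2.74 ± 0.22 (SE), adjusted p = 0.000471) and B2m, the shared light chain, at 30033, 27902 and 25665 and 9010.2, 8070.1 and 5883 (log2 change -1.88 ± 0.12 (SE), adjusted p = 0.000236).

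Sterol synthesis rose, to a degree that depended on mouse 3. Lss, the lanosterol synthase, was at 1344, 1848 and 646 in crypts and 4795, 4128 and 5068 at day 1 (log2 change 1.99 ± 0.31 (SE), adjusted p = 0.00346), and its log2 change was 1.51 without mouse 3. Fdps, which makes farnesyl diphosphate, was at 3740.1, 4182 and 1296 and 7914, 7161 and 7599.7 (log2 change 1.47 ± 0.32 (SE), adjusted p = 0.0114). The crypt of mouse 3 was the lowest library for both. Of 26 genes 19 rose, 15 at least 2-fold, with a median of 1.20. Without mouse 3, 22 rose, 5 at least 2-fold, with a median of 0.70. Sqle (log2 change 1.21 ± 0.41 (SE), adjusted p = 0.0506) and Hmgcs1 (log2 change 0.92 ± 0.33 (SE), adjusted p = 0.0586) missed the threshold. Both passed without mouse 2 (adjusted p = 0.0108 and 0.0057) and, with smaller changes of 0.54 and 0.43, without mouse 3 (adjusted p = 0.00171 and 0.0266). Npc1l1, the apical cholesterol importer, fell from 13986, 13166 and 15519.5 to 4644, 4363 and 5036 (log2 change -1.60 ± 0.09 (SE), adjusted p = 0.000138). Most enzymes of the pathway thus rose, and the importer of dietary cholesterol fell. The sterol element TCACNCCAC was in 1 of 21 windows of the list (18 of 26 genes matched) and in 1.24% of all windows, and ATTGG, which NF-Y binds, in 17 of 21 (81.0%) against 37.4%.

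Desaturases led fatty acid synthesis. Scd2 was at 2898, 3097 and 592 in crypts and 37219, 43461 and 22064 at day 1, a mean 15.6-fold higher (log2 change 4.24 ± 0.29 (SE), adjusted p = 0.000304), and Me1, malic enzyme, at 863, 850.4 and 619 and 6659.6, 4476 and 4584 (log2 change 2.74 ± 0.13 (SE), adjusted p = 0.000114). Scd1 varied more, at 6.18, 4.26 and 97.1 and 506, 1712 and 231 (log2 change 5.24 ± 1.21 (SE), adjusted p = 0.0136), with a log2 change of 3.70 without mouse 2 and 7.25 without mouse 3. Over the list 11 of 16 rose and 1 (Mlxipl, -0.41) fell. Genes of fatty acid oxidation, ketogenesis and PPAR targets went down in 13 of 26 cases and up in 1, with the coactivator Ppargc1a at 2053, 1675 and 2221 and 639.5, 614 and 677 (log2 change -1.61 ± 0.10 (SE), adjusted p = 0.000216). The basolateral bile acid exporters Slc51a (3194, 4288 and 2989 and 951, 824 and 693) and Slc51b (1979, 2677 and 795 and 243, 204 and 212), which the bile acid receptor FXR induces, fell with its target Nr0b2 (-2.25 ± 0.29). The importer Slc10a2, which FXR is known to repress, rose from 12.4, 12.8 and 20.9 to 167, 106 and 129 (log2 change 3.06 ± 0.31 (SE), adjusted p = 0.000881). Of 9 bile acid and FXR genes tested 5 fell and 2 rose, against 25.2% and 25.4% of all genes. The activity of FXR was not tested.

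Glutathione and detoxification genes rose. Slc7a11, the cystine importer that feeds glutathione synthesis (chr3:49892526-50443614, minus strand), was at 23.7, 14.9 and 35.6 in crypts and 1974, 1078 and 1926 at day 1, a mean 67.1-fold higher (log2 change 6.04 ± 0.17 (SE), adjusted p = 9.03e-05). Gclc, the catalytic subunit of glutathione synthesis, went from 1349.7, 1243 and 1075 to 6072, 4327 and 6519.5 (log2 change 2.19 ± 0.15 (SE), adjusted p = 0.000309) and Hmox1, heme oxygenase, from 23.7, 28.7 and 40.5 to 399, 228 and 309 (log2 change 3.29 ± 0.28 (SE), adjusted p = 0.000532). The transferases Gsta3 (4.19 ± 0.19) and Gstm1 (3.43 ± 0.36, and 2.84 without mouse 3) rose, and so did the quinone reductase Nqo1 (1654, 1776 and 734 and 4387, 3326 and 4676). Of 27 NRF2 and glutathione genes 19 rose, 14 at least 2-fold, and 2 fell, Gpx3 (-1.92, and -1.23 without mouse 3) and Gpx4 (-0.31). The median was 1.42, and 1.07 without mouse 3. The antioxidant element TGACNNNGC was in 7 of 28 windows (25%) of the list and 12.4% of all windows.

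Cytochrome P450 genes moved both ways. Cyp2c29, a xenobiotic and lipid oxidase, was at 67.0, 150.1 and 1829.5 in crypts and 13234, 8419 and 15586 at day 1 (log2 change 5.50 ± 0.75 (SE), adjusted p = 0.00218), with a log2 change of 4.44 without mouse 1 and 6.71 without mouse 3. Cyp2b10, a target of the xenobiotic receptor CAR, went from 1742, 2378 and 2975 to 17229, 12486 and 17689 (log2 change 2.76 ± 0.18 (SE), adjusted p = 0.000258), and Cyp2c55 (2.73 ± 0.28) and Cyp2c66 (2.01 ± 0.19) rose. Cyp4v3 (-2.16 ± 0.22), Cyp4f14 (26083, 26922 and 25043 and 10055, 9714 and 7607) and Cyp2d22 (-1.97 ± 0.13) fell. In all 7 of 23 rose and 9 fell, against 25.4% and 25.2% of all genes. Members of the Cyp2c cluster are close paralogs whose reads may be shared.

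Metallothioneins rose and iron export fell. Metallothioneins bind zinc and copper and are induced by the factor MTF1 through an element written TGCNCNC, which is in capitals, on either strand, in the stretches upstream of both genes.
Mt1 (GRCm38.p6 chr8:94178839-94179088, plus strand): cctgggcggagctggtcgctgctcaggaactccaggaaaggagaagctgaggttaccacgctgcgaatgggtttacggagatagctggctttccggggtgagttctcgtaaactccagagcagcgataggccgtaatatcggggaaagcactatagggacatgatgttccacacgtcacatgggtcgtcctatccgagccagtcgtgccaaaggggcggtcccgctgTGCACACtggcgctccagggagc
Mt2 (GRCm38.p6 chr8:94172418-94172617, plus strand): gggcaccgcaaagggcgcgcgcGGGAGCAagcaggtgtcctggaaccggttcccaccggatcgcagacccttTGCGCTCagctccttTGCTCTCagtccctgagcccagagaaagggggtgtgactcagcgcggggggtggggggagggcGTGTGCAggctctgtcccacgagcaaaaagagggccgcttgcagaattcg
The shown stretch holds 1 match in Mt1 and 4 in Mt2. A match was in 10 of 16 windows of the metal list (62.5%) and in 51.0% of all windows, and at least 3 matches were in 5 of 16 and in 7.10%. Mt1 was at 2308, 2131 and 897 in crypts and 12529, 14083 and 10204 at day 1 (log2 change 2.89 ± 0.20 (SE), adjusted p = 0.000301). Mt2 was at 939, 775 and 55.3 and 11062, 11857 and 7940.1 (log2 change 4.88 ± 0.65 (SE), adjusted p = 0.00203), and its log2 change was 3.75 without mouse 3, whose crypt was the lowest, and 5.53 without mouse 1. The iron exporter Slc40a1 (ferroportin) fell from 6334, 4420.0 and 6153 to 464, 446 and 638 (log2 change -3.45 ± 0.12 (SE), adjusted p = 9.32e-05), while the apical ferric reductase Cybrd1 rose in each mouse from 225, 109.6 and 318 to 1306, 662 and 1926 (log2 change 2.57 ± 0.11 (SE), adjusted p = 9.32e-05). Of 18 genes 11 fell, 8 of them less than 2-fold, and 5 rose, against 25.2% of all genes that fell and 25.4% that rose.

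The rest of the 15 largest rises and falls, taken among genes with a mean of at least 100 and groups apart, mixed roles. Edn1, the peptide endothelin 1, rose from 4.12, 3.19 and 4.91 to 843, 389.5 and 653 (log2 change 6.90 ± 0.27 (SE), adjusted p = 9.32e-05), Plat, tissue plasminogen activator, from 3.09, 1.06 and 2.46 to 391, 210.2 and 296 (log2 change 6.56 ± 0.31 (SE), adjusted p = 0.000116) and Il1rn, the interleukin 1 receptor antagonist, from 9.27, 12.8 and 123 to 1429, 945 and 1525 (log2 change 5.62 ± 0.61 (SE), adjusted p = 0.00106). Without mouse 3 the log2 change of Il1rn was 6.62, and without mouse 1 it was 4.85. Grhl3, an epithelial barrier factor (5.34 ± 0.35), Cbr3, a carbonyl reductase (5.33 ± 0.27), Atg9b (5.14 ± 0.31) and Syt8 (6.52 ± 0.45) completed the rises. Among the falls, Enpp7, the sphingomyelinase of the brush border, went from 2537, 1388 and 434 to 33.5, 29.9 and 4.16 (log2 change -6.03 ± 0.22 (SE), adjusted p = 9.32e-05), and Ptk6, a kinase of differentiated epithelium, from 1538, 1173 and 1116 to 32.6, 21.6 and 11.7 (log2 change -5.89 ± 0.23 (SE), adjusted p = 9.32e-05). Slc5a12 fell from 519, 146 and 94.6 to 1.81, 0 and 0.832, where day 1 held 3 reads against 718 and the ratio of the crypts to day 1 was 288 with a counting interval of 98.1 to 1399. The others were Nlrp9b, Bst1, Slc7a15, Ubd, Asb2, Itgax and the lymphocyte protease Gzmb, at log2 changes from -6.49 (Gzmb) to -5.25 (Asb2), and Asb2, Itgax and Gzmb were highest in the crypt of mouse 3.

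Levels at day 3 in the same WT mice were set beside these changes without a test, on a joint scale of the 9 WT libraries. The genes counted were picked by their change at day 1, and no share over all genes was computed. All 22 ribosome biogenesis and all 12 stem cell genes that rose at least 2-fold were also above their crypt mean. Of these, 20 and 3 were lower at day 3 than at day 1. All 14 class I genes that fell at least 2-fold were still below their crypt mean. Lgr5 went on upwards, at 2321, 1839 and 1392 against a day 1 mean of 860.3. Among the 25 revival, fetal and YAP genes that rose at least 2-fold, 22 had a lower mean at day 3 than at day 1, and 24 were still above their crypt mean. Sprr1a was at 182, 175 and 129.8 after a day 1 mean of 1429, and Ereg at 97.5, 63.9 and 77.3 after 862, whereas Clu stayed at 1355, 912 and 1261 against 1056. All 31 interferon genes that fell at least 2-fold had a day 3 mean below their crypt mean, and for 30 it was below that of day 1, with Isg15 at 25.9, 19.5 and 23.9 after 188. Reg3b was at 1193, 646 and 1291 after 4667. All 25 absorptive genes that fell at least 2-fold were still below their crypt mean, and 20 of them were lower at day 3 than at day 1. Lct was among the 5 that were higher, at 1540.5, 1016 and 1708 after 589. Of the 15 cholesterol genes that rose at least 2-fold 12 had a higher mean at day 3, and Lss was at 4966, 5313 and 5313 after 4939. Of the 16 Paneth cell genes that fell at least 2-fold 13 had a higher mean at day 3 than at day 1, with Defa26 at 404, 451 and 342 after 104.

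**Figure D5:**
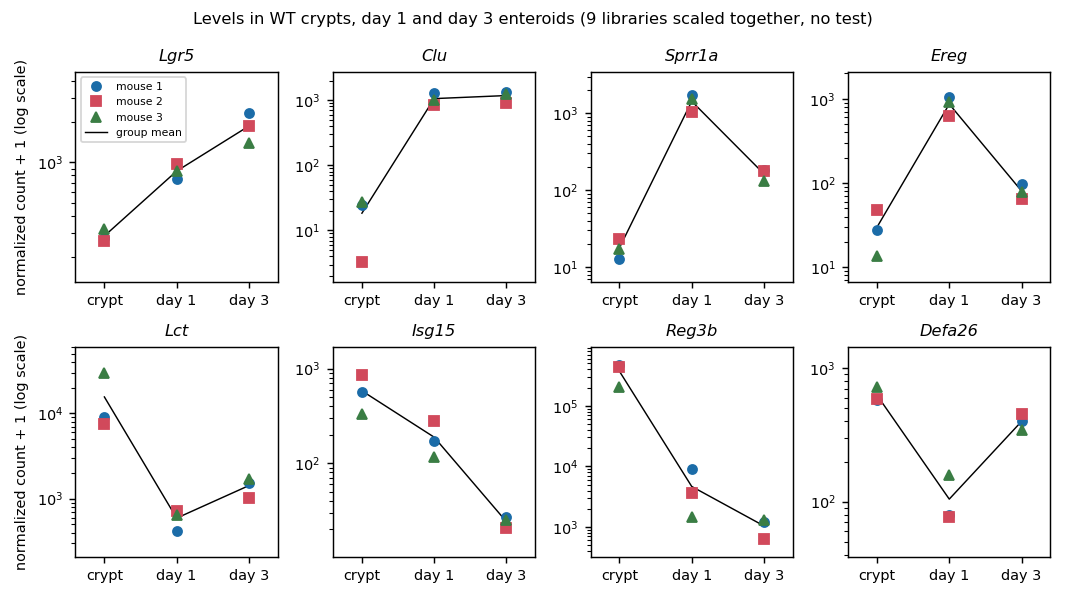
Normalized count + 1 (y axis, log scale) of 8 genes in WT crypts, day 1 and day 3 enteroids (x axis), 3 libraries a group, with the 9 libraries scaled together; points are libraries and lines join group means. Sprr1a and Ereg peak at day 1, Lgr5 is highest at day 3, Defa26 falls at day 1 and is higher again at day 3, and Isg15 and Reg3b fall at both steps.

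Cbfa2t2, the gene that encodes MTGR1, was at 660.4, 562 and 635 in WT crypts and 781, 703 and 751 in WT day 1 enteroids (log2 change 0.27 ± 0.10 (SE), adjusted p = 0.0594). Null libraries held it as well, at 734, 488 and 565 in crypts and 1100, 977 and 751 at day 1, so its gene-level count does not check the genotype labels. The crypt to day 1 change itself differed between WT and Mtgr1 null mice for 5054 of 12944 genes (39%) in limma on within-mouse differences, and for 11 of the 21 defining genes tested.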

How the data were processed

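RNA of duodenal crypts and enteroids was made into stranded mRNA libraries and sequenced as single 50-base reads. The authors trimmed reads with fastp 0.20.0, quantified them with Salmon 1.3.0 against GENCODE M21 (GRCm38), and normalized each day's 6 libraries in DESeq2 1.26.0. The deposited values used are gene counts divided by a size factor (signal, normalized counts); the deposited log2 fold changes, their standard errors, score (Wald statistic) and p-values of the authors' genotype comparisons were not used.

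Each column was divided by its smallest value above 0, which gave whole reads throughout, joined over the 3 tables and scaled by TMM (edgeR 4.0.16). The test took genes whose mean normalized count reached 10 and used limma 3.58.1 (R 4.3.3) on log2(normalized count + 1) with the mouse as a block, and fold changes of low genes are understated on that scale. Adjusted p are Benjamini-Hochberg over all 13038 genes, and a fold is a ratio of group means. Same-numbered crypts and enteroids came from the same mice, and their deviations correlated at 0.371, 0.192 and 0.443, although the crypt of mouse 2 correlated more with the enteroids of mouse 1 (0.267). The fit was tested on simulated data (100 of 100 genes recovered at 4-fold, 10 of the unchanged genes called among 12962). The simulated data had the same spread setting for all genes, far fewer changed genes and no library that stood apart. These rates therefore need not hold for the real libraries.

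Named genes were 22 defining genes, up to 4 rises and 4 falls per list (mean at least 50, at least 2-fold, the same direction in 3 mice) and the 15 largest rises and falls (mean at least 100, groups apart). Sox9, Lrig1, Isg15, Ifit1, Sqle, Hmgcs1, Cd74, Epcam, Cdh1, Pla2g2a, Dmbt1, Id2, Etv5, Gclc, Vil1, Sis, Cldn18, Fst, Ptprc and Cd8a, and every other member given outside these rules (among them S100a6, Gdf15, Rora, Pgc and Notch3), were named after their values were seen. Some genes under these rules are not reported here. The members and the 56 gene lists were chosen with earlier results of these data known. Promoter sequences are from RefSeq (GRCm38.p6), searched on both strands; the interferon element (GAAA, any 2 bases, GAAA) and TGACNNNGC were added after seeing the data. Counting intervals cover counting error only. Alternatives were other scalings, pseudocounts, filters and tools, and leaving out each mouse.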

Additional observations from a re-analysis of the deposited data

Results flagged for a closer look

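The change from crypt to day 1 was compared between WT and Mtgr1 null mice. The test was limma on the day 1 minus crypt difference of each mouse, 3 WT against 3 null. The change differed for 5054 of 12944 genes, more positive in WT for 2619 and more negative for 2435. Without mouse 1 of both genotypes 1720 genes passed.

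Among defining genes the difference was largest in stem cell genes. Lgr5 had opposite signs in the genotypes (log2 change 1.56 in WT and -2.36 in null mice, difference 3.92 ± 0.23 (SE), adjusted p = 0.000243). Olfm4 differed most (log2 change -0.06 in WT and -4.91 in null mice, difference 4.84 ± 0.55 (SE), adjusted p = 0.00117). Axin2 had opposite signs as well (log2 change 0.63 in WT and -2.60 in null mice, difference 3.23 ± 0.20 (SE), adjusted p = 0.000243), and so did Ascl2 (log2 change 0.68 in WT and -0.67 in null mice, difference 1.35 ± 0.32 (SE), adjusted p = 0.0123). The change of these 4 genes, which mark stem cells or Wnt signalling, was thus more positive in WT. The calls of Ascl2 and of Ccnd2 (log2 change 0.47 in WT and -0.22 in null mice, difference 0.69 ± 0.18 (SE), adjusted p = 0.0211) were lost without mouse 1 or mouse 2.

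Proliferation genes differed less, Mki67 by 0.94 on the log2 scale (adjusted p = 0.00212) and Myc by 1.29 (adjusted p = 0.017; lost without mouse 2). Chga, of enteroendocrine cells, had a more negative change in null mice (log2 change -0.83 in WT and -3.13 in null mice, difference 2.30 ± 0.26 (SE), adjusted p = 0.00117), and the tuft cell gene Dclk1 differed by 2.71 (adjusted p = 0.00883; lost without mouse 1). Absorptive genes went the other way, with Alpi (log2 change -0.75 in WT and 1.34 in null mice, difference -2.09 ± 0.24 (SE), adjusted p = 0.00126) and Apoa4 (log2 change -2.37 in WT and 0.40 in null mice, difference -2.77 ± 0.36 (SE), adjusted p = 0.00165) more negative in WT. Groups of 3 were too small for the test of single outlying samples.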

How the results depend on the processing

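Counts of genes that rose or fell stayed within 1.5 times under most of 18 alternatives. The exceptions were total read scaling, with 1351 genes at least 2-fold higher, leaving out mouse 1, and DESeq2 on mice 1 and 3 alone, with 2038 higher genes, an alternative chosen after seeing the data. Leaving out each mouse in turn gave 1751 to 3716 genes higher, 2022 to 3384 lower, 746 to 875 at least 2-fold higher and 1269 to 1445 at least 2-fold lower, and 1720 to 4010 genes whose change differed between genotypes. With 2 mice, 1 residual degree of freedom is left. The fit without the mouse as a block gave 3442 higher and 3222 lower genes, 825 and 1347 of them at least 2-fold, and edgeR on the recovered reads 3250 and 3274. No call reversed in any setting among the 232 named genes with a call, which include those named after their values were seen. Many of the 232 were picked for a large change in the same direction in all 3 mice, so few reversals could occur. Calls were lost for 8 of them without mouse 1, 5 without mouse 2, 1 without mouse 3, 4 without the block and 15 when all 18 libraries were fitted.

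Genes without a call turned sign in some settings. Olfm4 was at 0.15 under total read scaling, 0.24 under quantile normalization and -0.24 to 0.24 when each mouse was left out. Fabp1 was at 0.21, 0.60 and -0.28 to 0.24 in the same settings (0.039 without mouse 2), and at 0.039 and 0.034 in edgeR and DESeq2 on mice 1 and 3. Pla2g2a was at -0.65 to 0.52 when each mouse was left out, with 0.52 without mouse 3 (adjusted p = 0.00499). The difference between genotypes in these settings was -0.19 to 0.57 for Ccnd1, -0.16 to 0.41 for Atoh1, -0.86 to 0.84 for Lyz1, -0.70 to 0.28 for Anxa1 and -0.55 to 0.98 for Clu, which was at -0.27 with a pseudocount of 8. The cause was not tested. Simulated 2-fold changes, in data simpler than these, were recovered in 92 of 100 genes, so a change of that size can be missed with 3 mice.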

Other observations

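The unfolded protein response list moved both ways, near the shares over all genes. Of 30 genes in the unfolded protein response list 7 rose and 9 fell, against 25.4% and 25.2% of all genes. The rises were led by Chac1, a glutathione-degrading enzyme (16.5, 41.5 and 11.1 in crypts and 236, 229 and 208 at day 1, log2 change 3.44 ± 0.36 (SE), adjusted p = 0.000975), and by the serine synthesis enzymes Psat1 (537, 537 and 366 and 2781, 2828 and 2874, log2 change 2.58 ± 0.14 (SE), adjusted p = 0.000144) and Phgdh (2.13 ± 0.11), which with Asns (1.37 ± 0.19) are targets of the factor ATF4. The chaperones Hspa5 (-0.29) and Hsp90b1 (-0.26) did not pass, and the secretory disulfide isomerase Agr2 fell (-1.08 ± 0.08). Of 25 p53 targets 14 rose, against 25.4% of all genes. Among them were the kinase Plk2 (26.8, 25.5 and 54.1 and 456, 225 and 413, log2 change 3.35 ± 0.27 (SE), adjusted p = 0.000464), Phlda3 (3.26 ± 0.32) and the secreted factor Gdf15 (2.74 ± 0.44). Cdkn1a, the p53-induced inhibitor of the cell cycle, fell instead (-0.62), as did Fas, Sesn1 and Trp53i11. The medians of the 2 lists were -0.26 and 0.52, against -0.0015 over all genes.

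Immediate early genes moved both ways, 8 of 23 up and 5 down, against 25.4% and 25.2% of all genes. Fosl1, an AP-1 subunit, was at 0, 3.19 and 0 in crypts and 202, 133 and 233 at day 1, with 3 reads against 632 and a ratio of 175 (95% counting interval 59.7 to 852), while Fos (-1.64) and Klf4 (-1.88), a factor of villus differentiation, fell. At least 2-fold rises in the list numbered 8, and 5 without mouse 3. Of 18 circadian clock genes 3 rose and 4 fell, again against 25.4% and 25.2% of all genes. Rora (-1.71 ± 0.37), Hlf (-1.67 ± 0.22) and the repressor Nr1d1 (-2.02 ± 0.14) were among the falls and Cry1 (1.16 ± 0.12) and Ciart (2.19 ± 0.33) among the rises. Crypts and enteroids were collected a day apart, and the hour of collection was not given in the sources used here. In retinoid metabolism, Aldh1a1, which makes retinoic acid (1685, 1811 and 2262 and 15617, 10056 and 14382, log2 change 2.78 ± 0.15 (SE), adjusted p = 0.000138), rose, whereas Bco1 (-2.24 ± 0.18), which cleaves dietary carotene, and Lrat (-1.58 ± 0.26) fell. Among regional factors Foxa1 (1.51 ± 0.14) and Foxa2 (1.17 ± 0.20) rose, and Maf (-2.77) and Prdm1 (-2.06), which leukocytes also express, fell. The intestinal master factor Cdx2 fell slightly (-0.34) and Hnf4a did not pass (-0.14).

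Smaller lists gave mixed results, to be read beside the 25.4% of all genes that rose and the 25.2% that fell. Of 16 chemokine and cytokine genes 3 rose (Il1rn, Cxcl16 and Tnf) and 8 fell, and the call of Icam1 (-1.32) was lost without mouse 2. Glycolysis (3 of 19 up, 6 down) and hypoxia (4 of 19 up, 3 down) were led by the glucose transporter Slc2a1 (1.54 ± 0.12), a member of both, while Vegfa fell (-0.95). Glucocorticoid targets fell in 5 of 10 cases, with Sgk1 at -2.01 ± 0.15 and Tsc22d3 at -1.42 ± 0.19, and rose in 2, Dusp1 among them. Of 35 ribosomal protein genes 20 rose, none 2-fold, and 34 under total read scaling. Heat shock genes rose in 8 of 15 cases, none 2-fold. Of 14 genes of the MTG co-repressor complex 4 rose, among them Hdac2, Sin3a and Tcf3, and 1 fell (Ncor1). Of 8 aryl hydrocarbon receptor targets 3 rose (Cyp1b1, Nqo1 and Ugt1a6a), and the element GCGTG was in 5 of 7 of their windows, 7 of 25 windows of the cytochrome P450 list and 32.4% of all windows. Tff1 and Pgc, known from stomach and Brunner glands, were the 2 tested of 7 listed members, and both rose (4.56 ± 0.99 and 1.99 ± 0.35). The log2 change of Tff1 was 6.09 without mouse 1 and 3.54 without mouse 3, with crypt levels of 45.3, 0 and 0. Untested members stood low, with Tff2 at 6.18, 1.06 and 1.23 in crypts and 0, 0 and 0 at day 1. Cblif also went down, Atp4a went up (6.18, 6.39 and 2.46 and 10.9, 16.5 and 15.8), and Gkn1 and Gkn2 stayed at 5.43 or less. Summed list levels were 25.8 to 79.3 in crypts and 121 to 218 at day 1.

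Genes in the crypt or day 1 table but not the other were not tested. Of 1026 identifiers in the crypt table alone 24 had a mean of at least 10 reads, and of 690 in the day 1 table alone 19 did. Saa1, an acute phase protein, had 64, 41 and 8 reads in crypts, and the day 1 table alone held Ccn2 and the YAP cofactor Vgll3 (86, 31 and 87 reads).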
